A study of Homo sapiens with 12 samples.

Results

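The genes described here encode the subunits of the mitochondrial respiratory chain that are made from nuclear DNA, together with the complex I assembly factors of the NDUFAF family. They were taken from the deposited gene tables by symbol: names that begin with NDUF, UQCR, COX4 to COX8 or ATP5, and SDHA, SDHB, SDHC and SDHD, without pseudogene or read-through symbols. The rule found 96 genes among the 58288 rows. Of these, 37 encode subunits of complex I (NADH dehydrogenase), 8 are complex I assembly factors, 4 belong to complex II (succinate dehydrogenase), 9 to complex III (the cytochrome bc1 complex), 19 to complex IV (cytochrome c oxidase, with NDUFA4 and its paralogue NDUFA4L2 counted here) and 19 to complex V (ATP synthase).

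Complexes I to IV pass electrons from NADH and succinate to oxygen, and complexes I, III and IV pump protons across the inner mitochondrial membrane as they do so. Complex V lets the protons flow back through its membrane ring of c subunits and uses them to make ATP in its F1 head. Complexes I, III, IV and V are built from proteins of both genomes: cytochrome b of complex III, the catalytic core of complex IV and the membrane core of complex I are encoded in mitochondrial DNA, whereas complex II is wholly nuclear.

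RNA sequencing was done on HPB-ALL and KOPTK1, established human T-cell acute lymphoblastic leukaemia (T-ALL) lines. Cells of each line carried a pLKO.1 lentiviral short hairpin RNA, either a control against GFP or one against SHQ1, an assembly factor of H/ACA ribonucleoproteins, and all were selected with puromycin at 2 µg/ml. The labels give 3 control and 3 shSHQ1 samples for each line. Each line's table holds 6 library columns headed by numbers that match no sample label, so a library could be given its line but not its hairpin. The knockdown comparison was therefore not made, and what follows compares all 6 HPB-ALL libraries (numbers 7 to 12) with all 6 KOPTK1 libraries (numbers 1 to 6), each set holding both hairpins. A difference between the lines and one between any batches they were handled in cannot be told apart, and nothing states that the libraries of a line came from separate cultures. In bulk RNA, fewer cells that express a gene and less RNA per cell cannot be told apart either.

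Totals ran from 22884785 to 42842791 counts per library, and the 96 genes took 0.518% to 0.602% of them. No pair of libraries of a line agreed within sampling noise. KOPTK1 libraries 1, 2 and 3 stood apart from libraries 4, 5 and 6: their chi-square over degrees of freedom across genes was 21.4 to 25.3 for pairs taken across these libraries and 1.78 to 5.71 for pairs within them. Over 8426 other genes, the root mean square log2 distance from the HPB-ALL mean was 0.488 to 0.536 in libraries 1 to 3 and 0.746 to 0.762 in libraries 4 to 6, which were also the shallowest. Hairpin, batch and a mixture with RNA of other cells cannot be told apart as the source of this split, and each KOPTK1 mean or difference below averages over it. The counts and the larger differences are given also without libraries 1 to 3 and without libraries 4 to 6. Levels are given as RPKM, reads scaled to library depth (with TMM factors over the 12 libraries) and to each kilobase of summed exon length. Orders and ratios between different genes depend on these lengths, whereas the difference of a gene between the lines does not. SHQ1 itself, the gene targeted by the hairpin, was at 44.9, 43.8, 44.3, 41.0, 40.9 and 38.5 RPKM in KOPTK1 libraries 1 to 6 and at 72.9, 73.7, 72.7, 48.3, 47.0 and 49.8 RPKM in HPB-ALL libraries 7 to 12, and no library was assigned to a hairpin from these values. The T-cell markers were present in every library, with CD3D at 277 to 311 RPKM. TLX3, a marker listed for HPB-ALL, was at 0 to 0.283 RPKM and did not mark either line. LMO2, a marker listed for KOPTK1, was at 0.93 to 2.45 RPKM in KOPTK1 and 0.0798 to 0.268 RPKM in HPB-ALL. Of 5 B-cell markers, 3 stayed under 1 RPKM in every library. CD79A was at 40.9 to 47.6 RPKM in HPB-ALL, 23.2 to 24.4 in KOPTK1 libraries 1 to 3 and 5.77 to 7.01 in libraries 4 to 6. Its part in the results was not tested.

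RefSeq promoter sequences (GRCh38.p14, 250 bases before to 50 bases after the annotated start) were held for 77 of the 96 genes, as 95 promoters. Nuclear respiratory chain genes are known for promoters with sites for NRF1, for ETS-family factors such as GABP, for YY1 and for SP1. The letters GCANGCGC (NRF1), CCGGAAG (ETS), AAGATGG (YY1) and GGGCGG (SP1) were searched on both strands. The NRF1 letters stood in 34.7% of the 95 promoters against 11.7% of all 35116, the ETS letters in 26.3% against 10.3%, the YY1 letters in 22.1% against 5.84% and the SP1 letters in 61.1% against 45.0%. Counted by gene and set against genes expressed in these cells, the excess was smaller and for SP1 it turned round: NRF1 40.3% of the 77 genes against 23.9% of genes tested, ETS 29.9% against 21.7%, YY1 24.7% against 9.41% and SP1 62.3% against 73.3%. A match is a description of the letters and not a bound site. Of the 77 genes, 11 had none of the 4 motifs.

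Promoters that show this arrangement follow, one from each complex among the genes named by rule, with the pair of paralogues COX7A2 and COX7A2L, which differed between the lines in opposite directions. Each reads 5′ to 3′ along the gene's strand, and capitals mark the letters of the motifs.
SDHB, chr1:17053983-17054282, minus strand: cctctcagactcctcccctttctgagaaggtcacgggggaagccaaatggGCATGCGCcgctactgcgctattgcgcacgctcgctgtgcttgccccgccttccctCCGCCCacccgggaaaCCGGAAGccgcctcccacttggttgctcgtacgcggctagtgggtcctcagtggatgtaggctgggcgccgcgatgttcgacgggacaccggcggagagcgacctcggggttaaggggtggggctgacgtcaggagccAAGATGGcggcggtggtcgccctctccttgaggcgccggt
NDUFS7, chr19:1383657-1383956, plus strand: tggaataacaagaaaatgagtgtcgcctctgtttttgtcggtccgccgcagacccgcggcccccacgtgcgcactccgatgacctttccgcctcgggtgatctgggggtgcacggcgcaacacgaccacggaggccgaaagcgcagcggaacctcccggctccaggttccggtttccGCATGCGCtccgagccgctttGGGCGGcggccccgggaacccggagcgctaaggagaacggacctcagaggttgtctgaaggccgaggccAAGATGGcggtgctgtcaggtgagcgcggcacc
UQCRFS1, chr19:29213102-29213401, minus strand: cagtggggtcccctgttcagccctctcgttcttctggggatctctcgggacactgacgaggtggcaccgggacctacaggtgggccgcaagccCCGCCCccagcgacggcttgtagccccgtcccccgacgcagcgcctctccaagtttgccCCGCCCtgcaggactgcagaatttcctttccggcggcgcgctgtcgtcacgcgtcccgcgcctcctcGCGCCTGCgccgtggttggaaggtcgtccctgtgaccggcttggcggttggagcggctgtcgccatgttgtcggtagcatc
COX6A1, chr12:120437863-120438162, plus strand: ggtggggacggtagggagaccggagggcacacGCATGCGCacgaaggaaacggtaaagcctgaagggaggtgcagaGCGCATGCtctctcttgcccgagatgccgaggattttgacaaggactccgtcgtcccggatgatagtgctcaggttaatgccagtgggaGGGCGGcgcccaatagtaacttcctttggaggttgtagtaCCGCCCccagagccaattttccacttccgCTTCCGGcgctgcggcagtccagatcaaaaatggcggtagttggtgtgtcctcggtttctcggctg
ATP5MC2, chr12:53676034-53676333, minus strand: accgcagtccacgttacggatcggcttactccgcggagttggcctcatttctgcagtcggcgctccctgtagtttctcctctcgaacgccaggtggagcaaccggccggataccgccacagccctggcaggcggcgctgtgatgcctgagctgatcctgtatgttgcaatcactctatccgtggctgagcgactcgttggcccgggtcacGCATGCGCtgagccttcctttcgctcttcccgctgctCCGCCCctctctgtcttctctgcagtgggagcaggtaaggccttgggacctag
COX7A2, chr6:75243752-75244051, minus strand: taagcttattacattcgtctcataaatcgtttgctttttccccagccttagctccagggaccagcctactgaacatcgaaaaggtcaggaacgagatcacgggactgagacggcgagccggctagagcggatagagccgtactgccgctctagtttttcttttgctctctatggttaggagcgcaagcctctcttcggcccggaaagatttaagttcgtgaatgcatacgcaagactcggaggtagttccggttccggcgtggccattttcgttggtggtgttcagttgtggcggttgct
COX7A2L, chr2:42361168-42361467, minus strand: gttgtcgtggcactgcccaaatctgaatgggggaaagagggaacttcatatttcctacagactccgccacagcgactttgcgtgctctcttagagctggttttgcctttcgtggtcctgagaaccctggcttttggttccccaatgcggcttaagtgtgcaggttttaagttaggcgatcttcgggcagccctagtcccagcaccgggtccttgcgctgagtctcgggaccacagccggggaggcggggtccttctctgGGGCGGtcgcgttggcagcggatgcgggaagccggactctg

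The SDHB promoter held all 4 motifs, with the NRF1 letters starting at -200 from the start site, the SP1 letters (opposite strand) at -144, the ETS letters at -128 and the YY1 letters at 10, inside the transcribed part. NDUFS7 held the NRF1 and SP1 letters upstream of the start and the YY1 letters after it. UQCRFS1 held 1 NRF1 and 2 SP1 matches and COX6A1 held 2 NRF1, 2 SP1 and 1 ETS match, all before the start. In ATP5MC2 an NRF1 match stood at -40 and an SP1 match across the start site. The COX7A2 promoter held none of the 4 motifs and that of COX7A2L held 1 SP1 match after the start site.

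Of the 96 genes, 90 reached a mean of 1 RPKM in at least 1 line and were tested, among 24223 genes in all, in 1 edgeR quasi-likelihood fit. Differences are log2 of HPB-ALL over KOPTK1 with their standard error (SE), and p-values were adjusted over all genes tested (Benjamini-Hochberg). At an adjusted p under 0.05, 72 of the 90 genes differed between the lines (80.0%, against 65.8% of all genes tested). Expression was higher in HPB-ALL for 60 (66.7%, against 37.2% of all genes) and higher in KOPTK1 for 12 (13.3%, against 28.7%). Since differences are called more often at higher levels, the same shares were taken over the 8504 genes with a mean of at least 10 RPKM: 51.3% of those were higher in HPB-ALL and 25.2% in KOPTK1, beside 70.5% and 12.8% of the 78 respiratory chain genes at that level. The median difference of the 90 genes was 0.21 on the log2 scale, against 0.04 over all genes tested and 0.12 over genes of at least 10 RPKM. The 6 libraries of one line did not overlap those of the other for 60 of the 90 genes (46.8% of all genes), with HPB-ALL above in 51 and KOPTK1 above in 9. At 10 RPKM or more the gap was smaller: 70.5% of the respiratory chain genes and 60.5% of all genes did not overlap. At that level 83.3% and 76.4% were called.

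The differences were small in fold. The median size of the difference, without its sign, was 0.25 on the log2 scale for the 90 genes and 0.34 over all genes tested. At 10 RPKM or more it was 0.256 and 0.260, so small folds were shared with other genes of that level. With a fitted change of at least 1.5-fold required as well, 5 of the 90 genes stayed called. Of all genes, not matched for level, 26.5% did. The 5 genes were the following. They were COX7A2, NDUFA4, NDUFAF2, NDUFB3 and NDUFS1, all higher in HPB-ALL. This was a cut-off on the fitted value and not a test against 1.5-fold, and NDUFS1 lay just above it (1.503-fold). Without KOPTK1 libraries 1 to 3, 74 genes were called (82.2%, against 70.1% of all genes), 59 of them higher in HPB-ALL (65.6%, against 36.7%). Without libraries 4 to 6, 59 were called (65.6%, against 53.9% of all genes), 49 of them higher in HPB-ALL (54.4%, against 29.2%). The median difference moved to 0.24 and 0.13, beside 0.0036 and 0.02 over all genes.

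**Figure D1:**
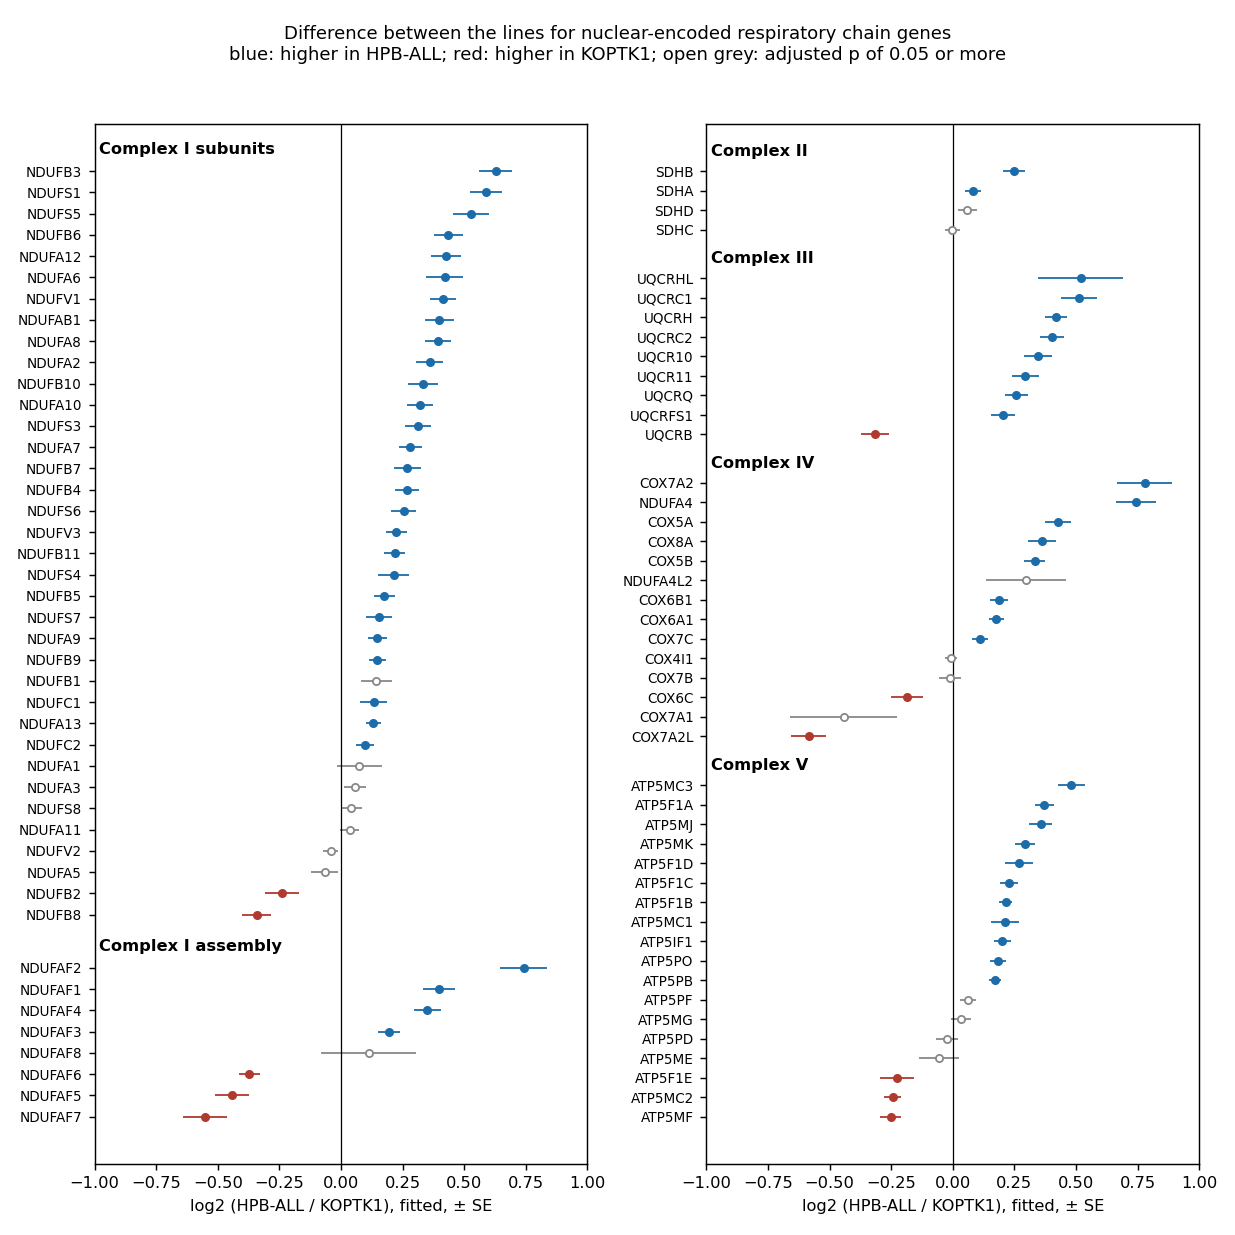
Fitted log2 difference between HPB-ALL and KOPTK1 (x axis, points, with bars of 1 SE) for the genes tested (y axis), apart from any not reported here by name, ordered within each complex. The 60 genes higher in HPB-ALL (blue) lie to the right, those higher in KOPTK1 (red) to the left, and the 18 not called are open grey points.

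Complex I oxidizes NADH and is the largest of the complexes. Positions in parentheses are the gene spans given in the tables, on GRCh38. Of its 37 nuclear subunit genes, 27 were higher in HPB-ALL and 3 in KOPTK1, beside 37.2% and 28.7% of all genes (51.3% and 25.2% at 10 RPKM or more). The other 7 were not called, and the median difference of the complex was 0.22 on the log2 scale. Of the genes higher in HPB-ALL, 4 belonged to the catalytic core of 7 genes and 23 to the 30 accessory subunits. NDUFS1, the largest iron-sulfur subunit of the electron-input arm (chr2:206114817-206159603, minus strand), was at 7.93, 9.09 and 10.4 RPKM (lowest, median and highest) in KOPTK1 and at 13.2, 13.7 and 14.1 RPKM in HPB-ALL, a difference of 0.59 (SE 0.06, edgeR adjusted p = 4.0e-06). The lines did not overlap, and KOPTK1 libraries 4 to 6 held the 3 lowest values. NDUFV1, the subunit that binds FMN and takes the electrons from NADH, was at 54.2, 59.3 and 66.9 RPKM in KOPTK1 and at 74.8, 79.7 and 83.3 RPKM in HPB-ALL (difference 0.41, SE 0.05, edgeR adjusted p = 1.6e-05). NDUFV2, its partner in that module, was at 30.8 to 32.7 RPKM and 29.0 to 31.6 RPKM, with overlapping lines and a difference of -0.04 that was not called.

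Among the accessory subunits NDUFB3, a small protein of the membrane arm (chr2:201071739-201085750, plus strand), differed most. It was at 28.5, 33.5 and 36.8 RPKM in KOPTK1 and at 46.9, 50.7 and 56.1 RPKM in HPB-ALL (difference 0.63, SE 0.07, edgeR adjusted p = 3.4e-06). In reads over the 12 libraries, NDUFS1 had 59506 and NDUFS5 30958, and NDUFA9 had 19433 and NDUFA7 8198. The order by level within the complex therefore depends on the exon lengths used. Per length NDUFS5 had the highest level of the complex in both lines, 106 ± 14 RPKM in KOPTK1 and 153 ± 6.7 RPKM in HPB-ALL (SD, n = 6), and NDUFA9 the lowest, 4.98 ± 0.17 and 5.52 ± 0.21 RPKM. The opposite direction was seen for NDUFB8, another membrane-arm subunit (chr10:100523740-100530000, minus strand), which was at 37.6, 41.1 and 46.2 RPKM in KOPTK1 and at 31.5, 32.8 and 33.5 RPKM in HPB-ALL (difference -0.34, SE 0.06, edgeR adjusted p = 0.00016). Here too the lines did not overlap, and libraries 4 to 6 held the 3 highest values. NDUFB2 was also higher in KOPTK1, by a smaller difference of -0.24.

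The complex I assembly factors are not part of the finished enzyme. Of 8 genes, 4 were higher in HPB-ALL and 3 were higher in KOPTK1, beside 37.2% and 28.7% of all genes, and 1 was not called. With 8 genes, these counts are not read as a trait of the class. NDUFAF2, which acts late in assembly and is itself a paralogue of the subunit NDUFA12 (chr5:60945129-61153037, plus strand), was at 13.1, 15.5 and 20.4 RPKM in KOPTK1 and at 25.2, 26.7 and 30.0 RPKM in HPB-ALL (difference 0.74, SE 0.10, edgeR adjusted p = 1.6e-05). With the reads of its 2 pseudogene rows added, which made up 19.0% of the sum, the difference was 0.53. NDUFAF7, an arginine methyltransferase (chr2:37231666-37249160, plus strand), was at 6.75, 7.77 and 8.92 RPKM in KOPTK1 and at 4.34, 5.32 and 5.96 RPKM in HPB-ALL (difference -0.55, SE 0.09, edgeR adjusted p = 0.0001). NDUFAF5, which hydroxylates an arginine of NDUFS7 (chr20:13784950-13821582, plus strand), was at 6.86, 7.72 and 9.33 RPKM and at 5.66, 5.77 and 5.92 RPKM (difference -0.44, SE 0.07, edgeR adjusted p = 7.4e-05). In both genes every KOPTK1 library lay above every HPB-ALL library. NDUFAF6 was also higher in KOPTK1 (-0.37), and NDUFAF1, NDUFAF3 and NDUFAF4 were higher in HPB-ALL (0.40, 0.19 and 0.35).

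NDUFAF8 varied most within a line. In HPB-ALL it was at 44.2, 37.5, 22.1, 28.4, 20.5 and 17.8 RPKM in libraries 7 to 12, a log2 SD of 0.52 where the median of the 78 respiratory chain genes of at least 10 RPKM in that line was 0.06. In KOPTK1 it lay between 23.1 and 30.2 RPKM. The difference between the lines was not called, and it turned from 0.11 to -0.08 without HPB-ALL library 7.

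**Figure D2:**
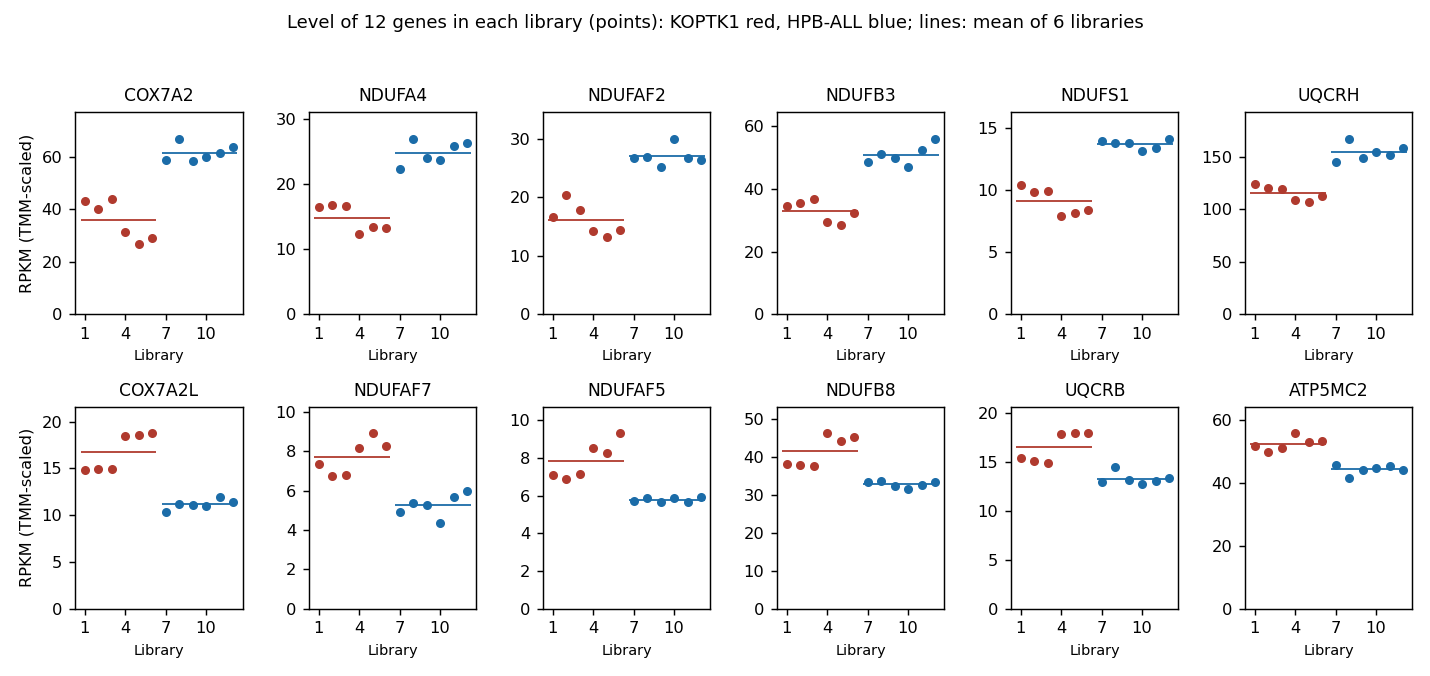
Level in RPKM (y axis, from 0) of 12 genes in each library by its number in the tables (x axis), with the mean of the 6 libraries of each line as a horizontal line. In the upper row every HPB-ALL library lies above every KOPTK1 library and in the lower row below, and in each of the 12 genes KOPTK1 libraries 4 to 6 lie farther from the HPB-ALL mean than libraries 1 to 3.

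Complex II joins the citrate cycle to the chain and has 4 nuclear genes. SDHB, its iron-sulfur subunit, was at 38.7, 43.1 and 45.7 RPKM in KOPTK1 and at 47.8, 50.7 and 53.7 RPKM in HPB-ALL (difference 0.25, SE 0.04, edgeR adjusted p = 0.0002). SDHA, the flavoprotein, was at 39.3, 40.7 and 43.1 RPKM and at 41.9, 42.5 and 45.1 RPKM, overlapping between the lines, and its difference of 0.08 passed the test (SE 0.03, edgeR adjusted p = 0.035) but not under every setting. It was not called when any 1 of 9 libraries was left out, without KOPTK1 libraries 4 to 6 (0.0036) or by DESeq2 (0.03), and with the reads of 4 SDHA pseudogene rows added, which outnumbered those of SDHA itself at 56.4% of the sum, it was -0.00 with an edgeR adjusted p of 0.957. SDHC and SDHD, which anchor the enzyme in the membrane, were at 5.66 to 6.19 and 18.2 to 20.1 RPKM in KOPTK1 and at 5.75 to 6.11 and 19.2 to 20.7 RPKM in HPB-ALL, and neither was called.

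Complex III passes electrons from ubiquinol to cytochrome c. Of its 9 nuclear genes, 8 were higher in HPB-ALL and 1 in KOPTK1, beside 37.2% and 28.7% of all genes (51.3% and 25.2% at 10 RPKM or more). The median difference was 0.34 on the log2 scale. The core proteins UQCRC1 and UQCRC2 differed by 0.51 and 0.40, and their lines did not overlap. UQCRH, the acidic hinge protein that helps cytochrome c to dock (chr1:46303631-46316776, plus strand), was at 107, 116 and 124 RPKM in KOPTK1 and at 145, 154 and 168 RPKM in HPB-ALL (difference 0.42, SE 0.04, edgeR adjusted p = 3.5e-06). UQCRFS1, the Rieske iron-sulfur protein, was at 15.1, 15.8 and 16.8 RPKM and at 16.4, 18.4 and 19.7 RPKM, with 1 HPB-ALL library inside the KOPTK1 range (difference 0.21, SE 0.05, edgeR adjusted p = 0.0018). UQCRB, which holds ubiquinone near the cytochrome b subunit, was the exception, at 14.9, 16.7 and 18.0 RPKM in KOPTK1 and at 12.8, 13.1 and 14.5 RPKM in HPB-ALL (difference -0.31, SE 0.06, edgeR adjusted p = 0.00024). UQCRHL, an intronless copy of UQCRH, was at 0.728 to 1.31 RPKM in KOPTK1 and 1.06 to 1.98 RPKM in HPB-ALL. It is uncertain because its reads are hard to tell from those of UQCRH, and its difference of 0.52 was not called without HPB-ALL library 9 (0.40, edgeR adjusted p = 0.0597) or without KOPTK1 libraries 4 to 6 (0.27, edgeR adjusted p = 0.21).

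Complex IV reduces oxygen to water. Of its 19 genes 14 were tested, of which 8 were higher in HPB-ALL, 2 were higher in KOPTK1 and 4 were not called. Of all genes 37.2% and 28.7% were higher in HPB-ALL and in KOPTK1, and 51.3% and 25.2% at 10 RPKM or more. The share of complex IV genes higher in HPB-ALL lay near that of genes of at least 10 RPKM and is not read as a trait of the complex. Complex IV held the gene with the largest difference in each direction. COX7A2, the widely expressed form of subunit 7a (chr6:75237675-75250323, minus strand), was at 43.2, 40.3, 44.1, 31.4, 26.8 and 29.1 RPKM in KOPTK1 libraries 1 to 6 and at 58.5, 60.8 and 67.1 RPKM (lowest, median and highest) in HPB-ALL. The difference was 0.78 (SE 0.11, edgeR adjusted p = 4.0e-05), or 1.71-fold, and it was 1.07 without KOPTK1 libraries 1 to 3 and 0.49 without libraries 4 to 6. COX7A2L, a paralogue that joins complexes III and IV into supercomplexes (chr2:42349338-42369010, minus strand), went the other way, at 14.8, 14.9, 15, 18.5, 18.5 and 18.8 RPKM in KOPTK1 libraries 1 to 6 and at 10.3, 11.1 and 12 RPKM in HPB-ALL (difference -0.58, SE 0.07, edgeR adjusted p = 9.8e-06). It was -0.74 and -0.46 without the same libraries. Neither gene overlapped between the lines, and in both KOPTK1 libraries 4 to 6 lay farther from HPB-ALL than libraries 1 to 3. The ratio of COX7A2 to COX7A2L per length was 5.15 to 6.01 in HPB-ALL and 1.45 to 2.95 in KOPTK1. In unscaled reads, summed over 6 libraries, COX7A2 had 15947 and COX7A2L 9077 in HPB-ALL, against 7296 and 10190 in KOPTK1, so that the order within KOPTK1 depends on the length used.

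NDUFA4, a subunit once assigned to complex I (chr7:10931951-10940256, minus strand), was at 12.4, 15 and 16.9 RPKM in KOPTK1 and at 22.4, 24.9 and 27.0 RPKM in HPB-ALL (difference 0.74, SE 0.08, edgeR adjusted p = 4.5e-06). It was 0.93 without KOPTK1 libraries 1 to 3 and 0.54 without libraries 4 to 6. COX6C was higher in KOPTK1 by a small difference (-0.19, edgeR adjusted p = 0.020) with overlapping lines. COX4I1, the ubiquitous form of the regulatory subunit 4, stood at 81.3 ± 1.1 RPKM in KOPTK1 and 81.0 ± 1.5 RPKM in HPB-ALL (SD, n = 6) and was not called (difference -0.01, SE 0.02, edgeR adjusted p = 0.84), although it was called higher in KOPTK1 by DESeq2 (-0.06) and by library totals alone (-0.07). Per length COX6A1 had the highest level of the complex in both lines, 107 ± 3.5 and 121 ± 2.6 RPKM, though COX4I1 had more reads.

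Several complex IV subunits have a second gene that is known from muscle, lung or testis. These alternative forms were low or absent in both lines. COX7B2 had no reads in any library, a count that allows up to 3 reads per library, and COX8C and COX6A2 had 3.5 to 10.5 reads in total over the 6 libraries of a line. COX4I2 had 16 reads in HPB-ALL and 38 in KOPTK1, where COX4I1 had 34625 and 26486. COX6B2 was at 0.247 to 0.565 RPKM over both lines, and per length COX6B1 was 186 times higher in HPB-ALL and 163 times higher in KOPTK1. In reads COX6B1 had 16686 against 275 of COX6B2 in HPB-ALL and 11203 against 211 in KOPTK1, a smaller ratio. COX7A1, the muscle form of subunit 7a, was at 0.968 to 1.90 RPKM in HPB-ALL and 1.46 to 3.07 RPKM in KOPTK1 and was not called (difference -0.44, SE 0.22, edgeR adjusted p = 0.088), though it was without HPB-ALL library 8 (-0.57), without KOPTK1 libraries 1 to 3 (-0.69) and by DESeq2 (-0.50). NDUFA4L2, the form known to be induced by hypoxia, was at 0.80 to 1.62 RPKM over both lines and was not called, though it was without KOPTK1 library 3 (0.43) and without KOPTK1 libraries 1 to 3 (0.55). Counting error is large at these levels. For the 7 pairs in which the second gene had at least 3 reads in every library, all 6 libraries went the same way in each of 14 comparisons. This gives the smallest p that an exact two-sided sign-flip permutation test of 6 libraries allows, 0.03125 before and after adjustment. The adjustment ran over 22 comparisons, which include the other pairs. In those the second gene had few or no reads, and their p-values are not read as results.

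**Figure D3:**
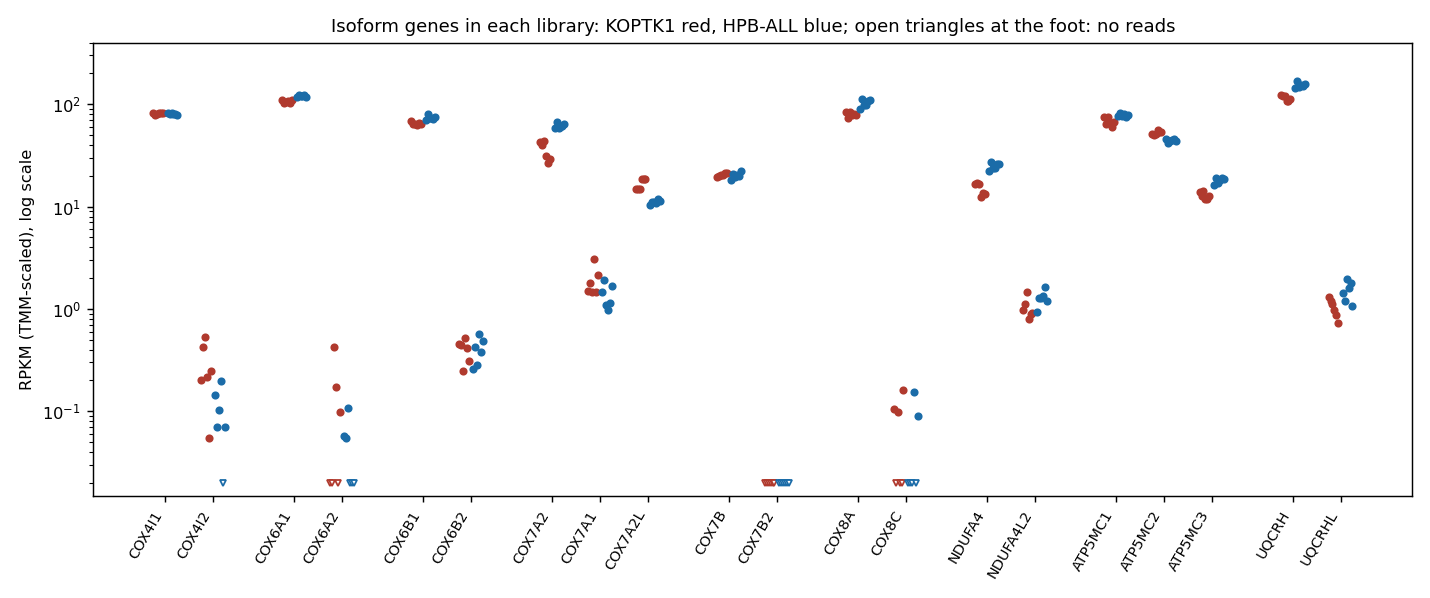
Level in RPKM (y axis, log scale) of isoform genes in each of 12 libraries (points, KOPTK1 red, HPB-ALL blue), with open triangles at the foot for libraries with no reads. The main forms of complex IV subunits stand above 10 RPKM in every library and their alternative forms, apart from COX7A2L, at 3.07 RPKM or less.

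Complex V makes ATP. Of its 19 genes 18 were tested, of which 11 were higher in HPB-ALL and 3 in KOPTK1, beside 37.2% and 28.7% of all genes (51.3% and 25.2% at 10 RPKM or more). The other 4 were not called, and the median difference was 0.19 on the log2 scale. ATP5F1B, the catalytic beta subunit of F1, had the highest level of all 96 genes, 207 ± 5.7 RPKM in KOPTK1 and 240 ± 5.0 RPKM in HPB-ALL (SD, n = 6), a difference of 0.22 (SE 0.03, edgeR adjusted p = 1.1e-05). ATP5F1A, its alpha partner in the same ring, was at 40.6, 44.2 and 46.7 RPKM in KOPTK1 and at 54.9, 56.7 and 59.0 RPKM in HPB-ALL (difference 0.37, SE 0.04, edgeR adjusted p = 3.0e-06). ATP5IF1, the inhibitor that stops the enzyme from hydrolysing ATP, was at 23.8 to 25.2 RPKM and 26.8 to 29.3 RPKM (difference 0.20, SE 0.03, edgeR adjusted p = 0.00011). Of the 5 F1 genes, only ATP5F1E (epsilon) was higher in KOPTK1 (-0.23), with overlapping lines.

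The identical mature c subunit is encoded by 3 genes, which did not share a direction. ATP5MC3 was at 11.9, 12.8 and 14.1 RPKM in KOPTK1 and at 16.4, 18.4 and 19.0 RPKM in HPB-ALL (difference 0.48, SE 0.05, edgeR adjusted p = 5.5e-06). ATP5MC2 was at 49.8, 52.4 and 56.0 RPKM in KOPTK1 and at 41.8, 44.5 and 45.8 RPKM in HPB-ALL (difference -0.24, SE 0.03, edgeR adjusted p = 2.9e-05), and ATP5MC1 was at 59.4 to 75.4 and 75.7 to 81.9 RPKM (difference 0.21, SE 0.06, edgeR adjusted p = 0.0037). For ATP5MC1 the difference was 0.09 and not called without KOPTK1 libraries 4 to 6. Per length ATP5MC1 was the highest and ATP5MC3 the lowest in every library. In reads ATP5MC3 had the most of the 3 in HPB-ALL (24619) and ATP5MC2 the most in KOPTK1 (21550), since the exons annotated for ATP5MC3 sum to 5673 bases. ATP5MF, a membrane subunit, was the complex V gene with the largest difference towards KOPTK1, at 98.0, 106 and 118 RPKM there and 87.0, 89.3 and 91.1 RPKM in HPB-ALL (-0.25, SE 0.04, edgeR adjusted p = 0.00019). ATP5MGL, an intronless copy of ATP5MG, was at 0.293 to 1.30 RPKM and was not tested.

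Leaving out KOPTK1 libraries moved the sizes and left the directions of the larger differences. Without libraries 1 to 3, NDUFAF2 differed by 0.95, NDUFB3 by 0.75, NDUFS1 by 0.74 and UQCRH by 0.49, and without libraries 4 to 6 NDUFAF2 differed by 0.52, NDUFB3 by 0.47, NDUFS1 by 0.40 and UQCRH by 0.31. Of the genes higher in KOPTK1, NDUFAF7 moved to -0.69 and -0.45, NDUFAF5 to -0.60 and -0.33, NDUFB8 to -0.47 and -0.25 and UQCRB to -0.44 and -0.23. All of these stayed called. Without libraries 4 to 6, the calls of NDUFAF3 (0.10), COX6C (-0.09) and ATP5F1E (-0.12) were lost, beside those of SDHA, UQCRHL, ATP5MC1, COX7C, NDUFA9, NDUFB5, NDUFC1, NDUFC2, NDUFS4 and NDUFS7. Without libraries 1 to 3, NDUFC1 and NDUFC2 lost their calls, and ATP5PD, NDUFA5, COX7A1 and NDUFA4L2 gained one.

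By complex, the genes higher in HPB-ALL and in KOPTK1 numbered 25 and 4 for complex I without libraries 1 to 3, and 21 and 3 without libraries 4 to 6. The same counts were 4 and 3, then 3 and 3, for the assembly factors of complex I, and 8 and 1, then 7 and 1, for complex III. They were 9 and 3, then 7 and 1, for complex IV, and 11 and 4, then 10 and 2, for complex V. In complex II, 2 and then 1 gene was higher in HPB-ALL and none in KOPTK1. Of all genes tested, 36.7% and 33.4% were higher in HPB-ALL and in KOPTK1 without libraries 1 to 3, and 29.2% and 24.7% without libraries 4 to 6. Of single genes, SDHB differed by 0.31 and 0.14, NDUFV1 by 0.52 and 0.26, UQCRC1 by 0.69 and 0.31 and UQCRC2 by 0.51 and 0.25. NDUFS5 differed by 0.70 and 0.32, ATP5F1A by 0.44 and 0.26, ATP5MC3 by 0.56 and 0.36 and ATP5F1B by 0.24 and 0.14.

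Some calls rested on single libraries. Apart from SDHA, UQCRHL, COX7A1 and NDUFA4L2 above, the call changed when 1 library was left out for COX7C, NDUFB1, NDUFC1, NDUFC2, NDUFS4 and NDUFS7, whose differences lay between 0.10 and 0.21. NDUFC1 was the least stable, since its call was lost without any 1 of 11 libraries (0.08 to 0.14), and NDUFC2 and NDUFS7 lost theirs without any 1 of 8 and 5. COX7C lost its call without HPB-ALL library 10 and NDUFS4 without HPB-ALL library 12, and NDUFB1 gained one without HPB-ALL library 7.

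The subunits of the same complexes that are made in mitochondria differed the other way. All 13 mitochondrially encoded subunit genes were higher in KOPTK1 (28.7% of all genes were), with a median difference of -0.53 and a range of -0.99 to -0.36 on the log2 scale. MT-ND2, a membrane subunit of complex I, was at 1141 to 1812 RPKM in KOPTK1 and 662 to 822 RPKM in HPB-ALL (difference -0.99, SE 0.11, edgeR adjusted p = 5.1e-06). MT-ND6 differed by -0.73 and MT-ATP8 by -0.74. MT-CO1, the catalytic subunit of complex IV, was at 2382 to 3032 RPKM and 1902 to 2032 RPKM (difference -0.46, SE 0.06, edgeR adjusted p = 1.8e-05). The lines did not overlap in any of the 13 genes. All 13 stayed called without KOPTK1 libraries 1 to 3 (median -0.74) and without libraries 4 to 6 (median -0.39).

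The summed level of the 96 nuclear genes was 3231 to 3472 RPKM in KOPTK1 and 3811 to 4044 RPKM in HPB-ALL, and that of the 13 mitochondrial genes 17197 to 23968 RPKM and 12815 to 14822 RPKM. The ratio of the mitochondrial sum to the nuclear sum was 4.95, 5.72 and 5.25 in KOPTK1 libraries 1 to 3, 6.89, 6.97 and 7.24 in libraries 4 to 6, and 3.2 to 3.9 in HPB-ALL. The recovery of mitochondrial transcripts depends on how RNA is prepared, here by depletion of ribosomal RNA, and whether this differed between the lines was not tested.

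**Figure D4:**
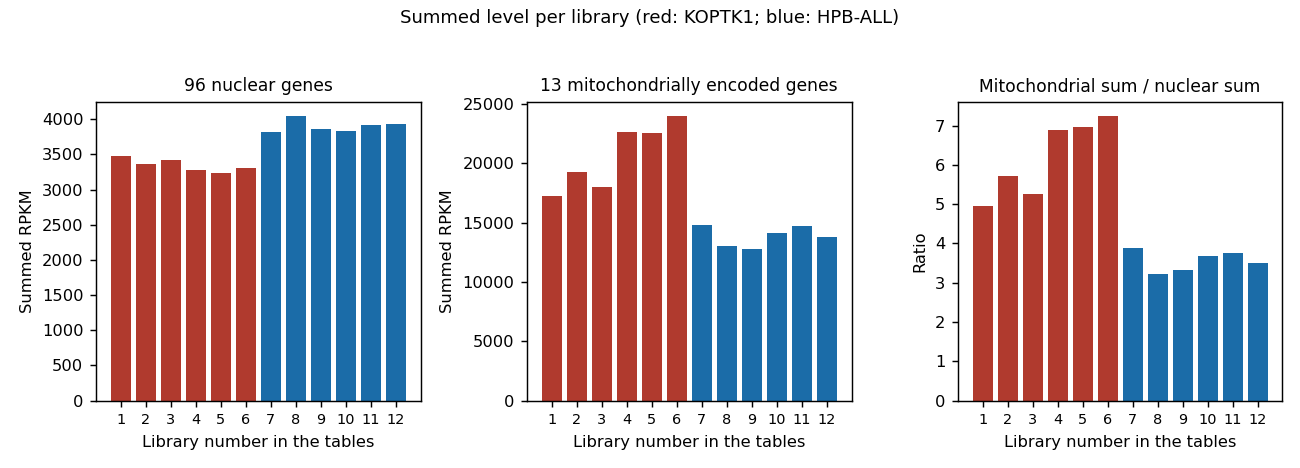
Summed RPKM of the 96 nuclear genes (left), of the 13 mitochondrially encoded genes (middle) and the ratio of the second to the first (right), as bars for each library. Nuclear sums are higher in HPB-ALL (blue, 3811 to 4044) than in KOPTK1 (red, 3231 to 3472), mitochondrial sums are lower, and the ratio is 3.2 to 3.9 against 4.95 to 7.24.

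Genes that serve the chain from outside its complexes were taken from lists. Of 43 further assembly factors, 29 were higher in HPB-ALL and 4 were higher in KOPTK1, with a median difference of 0.25 (37.2% and 28.7% of all genes were, 51.3% and 25.2% of those of at least 10 RPKM). Without KOPTK1 libraries 1 to 3 the counts were 30 and 4, and without libraries 4 to 6 they were 26 and 5. The largest differences were those of SDHAF4, an assembly factor of complex II (0.99, and 1.51 and 0.60 without libraries 1 to 3 and 4 to 6), and COA3, of complex IV (0.76, and 1.06 and 0.48), and in the other direction UQCC1, of complex III (-0.51), and PET117, of complex IV (-0.25). LRPPRC (-0.18), which stabilizes mitochondrial messenger RNA, and COX20 (-0.09) were the other genes higher in KOPTK1. Of 13 citrate cycle genes, 10 were higher in HPB-ALL and 1 was higher in KOPTK1, beside the 37.2% and 28.7% of all genes. These counts were 10 and 1 without libraries 1 to 3 and 7 and 1 without libraries 4 to 6, and 8 and 2 by library totals alone. Their differences ran from 0.53 for FH (fumarase) and 0.52 for IDH3A to -0.40 for DLST. Cytochrome c (CYCS) was higher in HPB-ALL by 0.21, while CYC1, the cytochrome c1 subunit of complex III, whose symbol lies outside the rule, was not called (0.05).

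Among 15 regulators of mitochondrial genes, 14 were tested, of which 3 were higher in HPB-ALL and 4 were higher in KOPTK1, beside 37.2% and 28.7% of all genes. Without KOPTK1 libraries 1 to 3 the counts were 4 and 6, and without libraries 4 to 6 they were 1 and 4. TFAM, which packages mitochondrial DNA and starts its transcription, was at 12.2 to 15.4 RPKM in KOPTK1 and 18.2 to 19.4 RPKM in HPB-ALL (difference 0.43, SE 0.05, edgeR adjusted p = 1.1e-05). TFB2M, which opens the mitochondrial promoters, was also higher in HPB-ALL (0.21), as was TFB1M (0.17), and neither was called without KOPTK1 libraries 4 to 6. SP1 (-0.24), GABPA, the DNA-binding part of GABP (-0.20), MYC (-0.20) and the coactivator PPARGC1B (-0.12) were higher in KOPTK1. NRF1 was at 8.87 to 11 RPKM and 9.12 to 9.97 RPKM and was not called (difference -0.07, edgeR adjusted p = 0.21). PPARGC1A, a coactivator of respiratory genes in muscle and brown fat, was at 0 to 0.0558 RPKM.

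Promoter letters were counted within the classes of call as a description. The NRF1 letters stood in 20 of 51 genes higher in HPB-ALL that had a promoter sequence and in 2 of 7 higher in KOPTK1, the ETS letters in 15 and 0, the YY1 letters in 12 and 1 and the SP1 letters in 35 and 5. With 7 genes in 1 class, these counts cannot separate the classes.

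Within a line, the genes varied about as much as others. The median SD on the log2 scale was 0.06 in HPB-ALL (78 genes, beside 0.06 over 8528 genes of at least 10 RPKM) and 0.09 in KOPTK1 (77 genes, beside 0.11 over 8388). The largest SDs were those of NDUFAF8 (0.52), COX7A1 (0.36) and UQCRHL (0.32) in HPB-ALL and of COX7A1 (0.40), COX7A2 (0.31) and UQCRHL (0.29) in KOPTK1. Pseudogene rows existed for 52 of the 96 genes, and they held over 10% of the summed reads for 7: SDHA, SDHD, NDUFAF2, NDUFB1, ATP5PD, COX6C and NDUFA5, whose values are uncertain to that extent.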

How the data were processed

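RNA from HPB-ALL and KOPTK1 cells was depleted of ribosomal RNA and sequenced by the authors as paired reads. The submitters' processing notes name Trimmomatic 0.36, STAR 2.5.4b, Picard 2.18.7, featureCounts 1.6.2, edgeR 3.22.3 and the hg38 build, whereas the study's methods name hg19 for its splicing analysis. The deposited tables hold estimated counts per gene (whole for 82.8% to 84.9% of values, the rest fractions), not normalized, beside the authors' own comparison columns (fold change, mean level, F, p and FDR), which were not used.

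Columns headed by numbers were given to a line because the sample descriptions name the line's table. Their hairpin is not given in the sources used here, so the planned knockdown test was not made. Symbols were matched for 95.8% of rows. Counts were rounded, scaled together by TMM and filtered at a mean of 1 RPKM in either line, and lines were compared with edgeR 4.0.16 (quasi-likelihood, R 4.3.3), with limma 3.58.1 and DESeq2 1.42.0 as alternatives. The SE is the difference divided by the root of F. P-values measure the spread between libraries, which may be technical. On simulated data for this comparison (23788 genes), the fit found 54% of the genes given a log2 change of 0.5 and 93% of those given 1, and 6.37% of calls were false. Only 100 genes were changed at each size, and the simulated KOPTK1 libraries held no split. The rates therefore do not describe the calls in the data, where 65.8% of genes differed. Distances and spreads used log2(RPKM + 0.1). Isoform pairs used log2 of reads plus 0.5 per kilobase and an exact two-sided sign-flip permutation test.

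The genes, lists and tests were chosen with earlier results of these data known. Genes were named by rule: the highest, lowest and most different of each complex, the 3 largest differences each way, isoform pairs, SDHA to SDHD, ATP5F1A, ATP5F1B, ATP5IF1, NDUFS1, NDUFV1, UQCRFS1, genes below the filter, genes whose call changed without 1 library, and the 3 largest SDs per line. Some genes that enter the counts are not reported here by name. Other genes named (such as NDUFV2, UQCRC1 and UQCRC2) were chosen after their values were seen. Promoters printed are those with the most motifs of each complex among named genes that were called, apart from the assembly factors, with COX7A2 and COX7A2L added. The GC-richest entry was taken where a gene has several.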

Additional observations from a re-analysis of the deposited data

Results flagged for a closer look

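The highest or lowest of the 6 libraries of a line stood off from the nearest other by a larger part of the line's whole range than Dixon's 95% limit for 6 values in 9 of 180 sets of 6 values, where chance flags about 5%. In HPB-ALL library 8, COX5A was at 71.1 RPKM (61.8 to 64.6 in the others) and UQCRB at 14.5 RPKM (12.8 to 13.4 in the others). In HPB-ALL library 7, COX6C was at 21.5 RPKM (23.9 to 25.3) and NDUFB1 at 21.3 RPKM (25.5 to 27.3). In HPB-ALL library 11, NDUFA13 was at 35.0 RPKM (32.9 to 33.6) and NDUFV2 at 29.0 RPKM (30.7 to 31.6). NDUFAF2 was at 30.0 RPKM in HPB-ALL library 10 (25.2 to 26.9). In KOPTK1, COX6B1 was at 69.1 RPKM in library 1 (63.0 to 65.3) and NDUFA5 at 11.1 RPKM in library 6 (9.17 to 9.87).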

How the results depend on the processing

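No paired analysis was possible because the library columns carry no replicate number of the labels and no hairpin. Over other normalizations, filters and tests, apart from the minimum change, 66 to 72 respiratory chain genes were called. With a cut-off of 1.5-fold on the fitted change, 5 were called, 5 higher in HPB-ALL and 0 higher in KOPTK1. At that cut-off 6424 genes were called in all (3022 higher in HPB-ALL) and 6 of the 13 mitochondrially encoded genes. With a filter of 10 RPKM, 7359 genes were called in all, 4814 higher in HPB-ALL, as fewer were tested. The median difference of the respiratory chain genes was 0.145 with library totals alone, 0.158 by DESeq2, 0.167 when centred on the median of all genes and 0.13 without KOPTK1 libraries 4 to 6. Library totals alone and DESeq2 called 51 and 55 higher in HPB-ALL and 15 and 15 higher in KOPTK1, and called 7776 and 8019 of all genes higher in HPB-ALL against 8999. Leaving out each library gave 67 to 72 called, 55 to 60 higher in HPB-ALL, 12 to 13 higher in KOPTK1 and a median of 0.17 to 0.21. The sign turned for genes near 0: SDHD was -0.0038 by library totals and -0.0501 with pseudogene reads, SDHA -0.0018 with pseudogene reads, and NDUFAF8 -0.0817 without HPB-ALL library 7 and -0.0175 without KOPTK1 libraries 1 to 3. These single-library omissions ranged from -0.0817 to 0.192 for NDUFAF8, from -0.0398 to 0.0111 for SDHC and from -0.0649 to 0.0015 for COX7B. SDHC was 0.0076 without HPB-ALL library 11 and 0.0016, 0.0053 and 0.011 without KOPTK1 libraries 2, 4 and 5, and COX7B 0.0015 without KOPTK1 library 5. None of these turned values passed the test. Over the named genes and the settings other than leaving out 1 library, 383 values kept direction and call, 60 lost the call, 7 gained one and 4 turned. Leaving out KOPTK1 libraries 1 to 3 or 4 to 6 and adding pseudogene reads were chosen after seeing the data. A pseudocount of 0.1 was not run because the values are counts. All 14 isoform comparisons in which the second gene had at least 3 reads in every library kept their direction with pseudogene reads. Their direction without each library was fixed in advance, since all libraries of a line went the same way, and it is not read as a result. The cause of these shifts was not tested.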
